A study of Mus musculus with 40 samples.

Results

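Myo18a, Ptpro, Mafg, Klf5, Pard3, Tlr1 and Rrad are 7 of the 14318 genes in the RNA-sequencing table. They were selected on measured values, because they led comparisons of chitin-treated with other 66cl4 primary tumors. Their differences between treatment groups within 66cl4 are therefore given as a description, without a test, whereas their values in 4T1 primary tumors and the difference between both models were not used for the selection. All 7 genes had a value in each of the 39 tumors. The 4T1 and 66cl4 cell lines are mouse mammary tumor lines used to model triple-negative breast cancer (TNBC). Luciferase-expressing cells of either line were inoculated through the teat canal of WT female BALB/c mice that were lactating mothers. The tumors of 8 groups were isolated at 5 w p.i., from untreated mice and from mice given i.p. 200 µg anti-PD-1, 1 mg chitin particles, or both (chitin + anti-PD-1). Each group had 5 tumors, except the untreated 4T1 group with 4, because its tumor 3 had degraded RNA. The mice were caged individually and a pair of glands was inoculated in each, but the sources used here do not tie each sequenced tumor to its own mouse. P-values therefore measure the spread between tumors, some of which may share a mouse, and all tumors of a model grew from the same established line.

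The genes belong to different pathways. Chitin is a polymer of arthropods, worms and fungi that mammals do not make, and that chitinase-like proteins bind without cutting it. Klf5 encodes a zinc finger transcription factor of proliferating epithelium, and Mafg encodes a small Maf protein that binds DNA as the partner of NRF2 or BACH1. Pard3 encodes a scaffold of the polarity complex at cell junctions, Myo18a an unconventional myosin, and Rrad a small GTPase that holds back voltage-gated calcium channels. Ptpro encodes a receptor-type tyrosine phosphatase found on podocytes and some leukocytes, and Tlr1 encodes the receptor that pairs with TLR2 to sense bacterial triacylated lipopeptides.

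The tumors had between 5105898 and 14800352 reads counted over all genes, as recovered from the deposited values. The 66cl4 libraries of the chitin-containing groups (chitin and chitin + anti-PD-1) were deeper than those of the other groups, with a mean of 9901574 against 6446900 reads. In 4T1, these means were 8436511 and 7034209 reads. Values are given on the deposited scale, the variance stabilizing transformation (VST) of DESeq2, which is close to log2 of the normalized count for highly expressed genes and compresses differences of genes with few reads. Among the 66cl4 libraries, untreated tumor 3 stood apart from its group, and among the 4T1 libraries, anti-PD-1-treated tumor 2 did, so that results resting on these tumors are also given without them. Untreated 66cl4 tumor 3 had a summed normalized count of skeletal muscle markers of 3666, against 23.8 to 147 in the rest of its group.

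In 66cl4 tumors, Myo18a, Mafg, Klf5, Pard3 and Rrad were lower and Ptpro and Tlr1 higher in the chitin-containing groups than in the others. Klf5 had the widest difference, -0.48 (SE 0.10, 10 against 10 tumors), with a mean normalized count that was 0.642 times that of the other groups. For Myo18a, the difference was -0.33 (SE 0.054) and the ratio of mean normalized counts 0.776. Mafg differed by -0.25 (SE 0.046), Pard3 by -0.25 (SE 0.050) and Rrad by -0.13 (SE 0.051). Ptpro was 0.29 higher (SE 0.051), with a ratio of 1.37, and Tlr1 was 0.30 higher (SE 0.057), with a ratio of 1.30. In bulk tumor tissue, fewer cells that express a gene and less RNA of that gene per cell cannot be told apart.

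Over all 14318 genes of 66cl4, the median difference between chitin-containing and other groups was 0.0026, with 7372 genes higher and 6946 lower. With limma and an adjusted p under 0.05, 0 genes (0%) were called in this comparison, 2238 had an unadjusted p under 0.05, and limma-voom on the recovered reads called 0 genes with 2130 under 0.05. Without untreated tumor 3, limma called 269 genes. Ordered by the strength of evidence, Myo18a, Ptpro and Mafg were in places 1, 2 and 3 of the main comparison, Tlr1, Pard3 and Klf5 in places 8, 12 and 22, and Rrad in place 1206. Rrad was in place 6 of the comparison of chitin with untreated tumors. These places are what the selection used.

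The values of the tumors still overlapped. For 0 of the 7 genes, the 10 chitin-treated tumors were separate from the 10 others, as for 0 genes in the table (0%). Between chitin and untreated 66cl4 tumors, Myo18a, Mafg, Rrad and Ptpro did not overlap, compared with 1.68% of all genes. Between chitin + anti-PD-1 and untreated tumors, Mafg, Ptpro and Tlr1 did not overlap (2.12% of all genes). Between anti-PD-1 and untreated tumors, only Ptpro of the 7 was separate (0.65% of all genes), and between chitin + anti-PD-1 and anti-PD-1, Mafg and Pard3 were (1.93% of all genes). Between chitin + anti-PD-1 and chitin, all 7 genes overlapped, with 0.817% of all genes separate. The comparisons with untreated tumors share the same 5 tumors, and since the genes were selected on these contrasts, nothing is read from the shares.

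**Figure D1:**
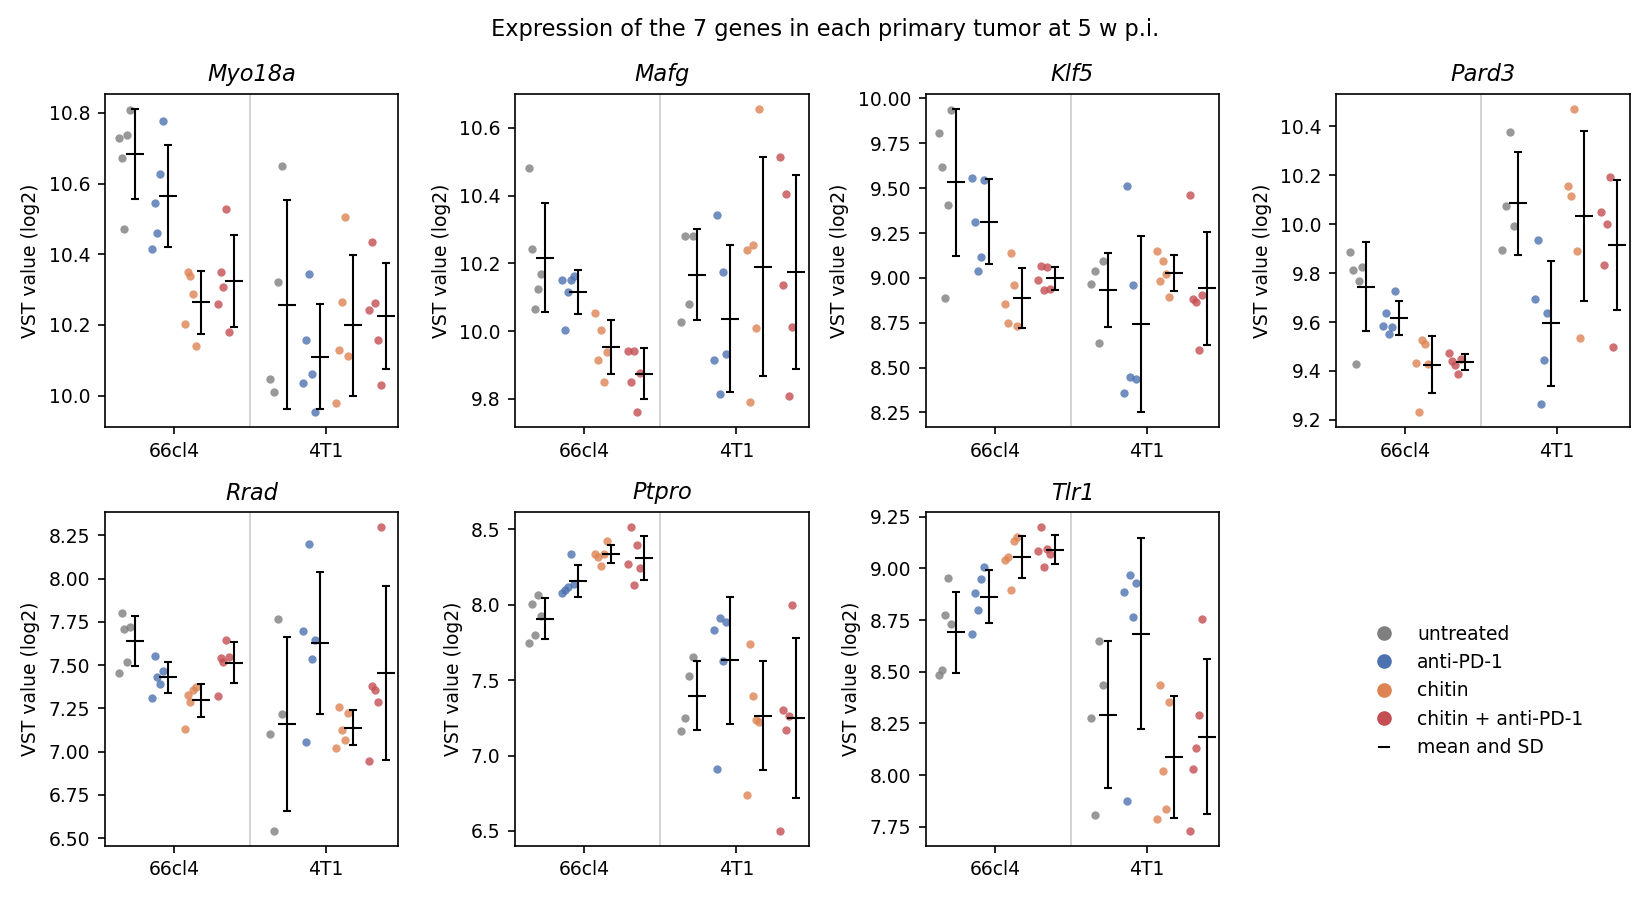
Values of the 7 genes on the deposited log2 scale (y axis) for each tumor (point) of the 4 treatment groups in 66cl4 (left of each panel) and 4T1 (right), with the mean and SD of each group as a black mark and bar. In 66cl4, Myo18a goes from a mean of 10.68 in untreated to 10.26 in chitin-treated tumors and Ptpro from 7.91 to 8.34, whereas the 4T1 groups overlap for all 7 genes.

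Myo18a (chr11:77763240-77865988 of mm10, plus strand) had values of 10.73, 10.67, 10.47, 10.74 and 10.81 in the untreated 66cl4 tumors and 10.41, 10.55, 10.46, 10.63 and 10.78 after anti-PD-1. After chitin these were 10.20, 10.35, 10.34, 10.29 and 10.14, and after chitin + anti-PD-1 10.26, 10.35, 10.31, 10.53 and 10.18. All 5 chitin-treated tumors were below all 5 untreated tumors, and chitin + anti-PD-1 tumor 4 was the only tumor of the chitin-containing groups that reached into the range of the other groups. The difference from untreated tumors was -0.42 for chitin, -0.36 for chitin + anti-PD-1 and -0.12 for anti-PD-1.

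RefSeq (GRCm38.p6) gives windows before a pair of start sites of Myo18a, chr11:77776985-77777234 and chr11:77801048-77801297 on the plus strand, both inside the gene. The sequence before the 5' end of the whole gene, at 77763240, is not among these windows. Both windows are shown for the gene in the first place of the 66cl4 comparison, with the match to a GC box in capitals.
Myo18a upstream start: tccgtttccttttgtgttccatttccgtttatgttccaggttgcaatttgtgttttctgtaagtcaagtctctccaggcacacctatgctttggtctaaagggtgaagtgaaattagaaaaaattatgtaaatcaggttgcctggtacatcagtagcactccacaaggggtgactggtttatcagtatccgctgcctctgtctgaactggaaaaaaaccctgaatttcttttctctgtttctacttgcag
Myo18a downstream start: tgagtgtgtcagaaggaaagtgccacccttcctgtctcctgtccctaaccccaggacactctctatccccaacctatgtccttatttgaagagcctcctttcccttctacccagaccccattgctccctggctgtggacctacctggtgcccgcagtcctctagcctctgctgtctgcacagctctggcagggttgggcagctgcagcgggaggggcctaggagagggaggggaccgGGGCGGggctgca
The first window has no match to the motifs searched. The GC box was searched as GGGCGG on both strands, and 32.7% of the 32851 promoter windows of the same length contain it. A match is a description of the letters and not of a bound site.

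MYO18A works beside non-muscle myosin II and binds the Golgi protein GOLPH3. Of 12 genes for non-muscle myosins, their light chains and such partners, 9 were higher and 3 lower in the chitin-containing 66cl4 groups, with a median difference of 0.03, and 0 were called by limma in either direction. Cdc42bpb, which encodes a kinase that acts on the myosin light chain, had the lowest difference, -0.13 (SE 0.045, adjusted p = 0.182). Myl6, the essential light chain with the highest level per length of the list, differed by 0.07 (SE 0.044, adjusted p = 0.455). Myo18b had the highest difference, 0.13 (SE 0.13, adjusted p = 0.683), at a mean normalized count of only 6.24 against 3.85. In 4T1, 8 of the 12 were higher and 4 lower, with 0 called.

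Mafg (chr11:120625117-120634955, minus strand) had values of 10.48, 10.24, 10.07, 10.12 and 10.17 in untreated and 10.15, 10.00, 10.11, 10.15 and 10.16 in anti-PD-1-treated 66cl4 tumors. After chitin they were 10.05, 9.91, 10.00, 9.85 and 9.94, and after chitin + anti-PD-1 9.94, 9.85, 9.94, 9.76 and 9.88. The lowest group was chitin + anti-PD-1, whose 5 tumors were all below the 10 tumors of the groups without chitin. How many of all genes are separate in this split was not computed, and nothing is read from it. In the chitin group, tumor 1 (10.05) was the only tumor above the lowest anti-PD-1-treated tumor (10.00). The differences from untreated tumors were -0.26 for chitin, -0.34 for chitin + anti-PD-1 and -0.10 for anti-PD-1, the last of which was -0.033 without untreated tumor 1. Exons of Mafg overlap those of Sirt7 on the same strand, so that reads in the overlap cannot be assigned to either gene with certainty.

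Small Maf proteins have no activation domain of their own and act through their partners. Among 16 genes for other small Maf proteins, their partners and targets of NRF2, 6 were higher and 10 lower in the chitin-containing 66cl4 groups, and the median difference was -0.14. None (0 of 16) was called by limma, with a smallest adjusted p of 0.0947, while 1 higher and 8 lower genes had an unadjusted p under 0.05. Hmox1, the heme-degrading enzyme and the target with the highest level per length, had the lowest difference at -0.82 (SE 0.32, adjusted p = 0.234). Its mean normalized count was 1082 against 2323. Bach2, a repressor of lymphocytes, had the highest difference, 0.16 (SE 0.063, adjusted p = 0.235). In 4T1, 10 of these genes were higher and 6 lower, with a median of 0.04 and 0 called.

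Klf5 (chr14:99298691-99313412, plus strand) was the most variable of the 7 genes in 66cl4, with an SD within groups of 0.25. Untreated 66cl4 tumors had values of 9.81, 9.62, 8.89, 9.41 and 9.94, and anti-PD-1-treated tumors 9.56, 9.31, 9.04, 9.12 and 9.54. After chitin the values were 8.86, 8.75, 9.14, 8.96 and 8.73, and after chitin + anti-PD-1 8.99, 9.07, 8.93, 9.06 and 8.94. Untreated tumor 3, at 8.89, was within the range of the chitin-treated tumors, while the other 4 untreated tumors were above all 10 tumors of the chitin-containing groups. Klf5 differed from untreated tumors by -0.64 after chitin, -0.53 after chitin + anti-PD-1 and -0.22 after anti-PD-1. Without untreated tumor 3, these differences were -0.81, -0.69 and -0.38, and without untreated tumor 5 that of anti-PD-1 was -0.12. Without tumor 3, the difference of the chitin-containing groups from the others was -0.56.

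The other Kruppel-like factors in the table were 3 higher and 8 lower of 11 in the chitin-containing 66cl4 groups. Their median difference was -0.03, and 0 were called by limma. Klf4, another epithelial factor, had the lowest difference, -0.18 (SE 0.11, adjusted p = 0.456). Klf16 had the highest, 0.09 (SE 0.044, adjusted p = 0.332), and Klf6, the factor with the highest level per length, differed by -0.04 (SE 0.053, adjusted p = 0.780). In 4T1, 8 were higher and 3 lower, with 0 called.

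Pard3 (chr8:127063381-127612286, plus strand) had values of 9.89, 9.81, 9.43, 9.77 and 9.82 in untreated and 9.58, 9.64, 9.55, 9.58 and 9.73 in anti-PD-1-treated 66cl4 tumors. They were 9.43, 9.23, 9.53, 9.51 and 9.43 after chitin and 9.47, 9.44, 9.43, 9.39 and 9.45 after chitin + anti-PD-1. As for Klf5, untreated tumor 3 (9.43) was among the chitin-treated tumors, and the other 9 tumors without chitin were above all 10 tumors with it. The SD of the chitin + anti-PD-1 group was 0.032, the smallest of the 4 groups. Pard3 differed from untreated tumors by -0.32 after chitin, -0.31 after chitin + anti-PD-1 and -0.13 after anti-PD-1, and without untreated tumor 3 by -0.40, -0.39 and -0.21.

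PAR3 recruits PAR6, atypical protein kinase C and CDC42 to cell junctions. Of 15 genes for polarity proteins in the table, 7 were higher and 8 lower in the chitin-containing 66cl4 groups, with a median difference of -0.01 and 0 called by limma. The unadjusted p was under 0.05 for 1 higher and 5 lower genes. Scrib, a basolateral polarity protein, had the lowest difference, -0.16 (SE 0.046, adjusted p = 0.139). Cdc42, the gene with the highest level per length, also had the highest difference, 0.13 (SE 0.047, adjusted p = 0.204). In 4T1, 10 were higher and 5 lower, with 0 called.

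Rrad (chr8:104628070-104631350, minus strand) was the member with the fewest reads in 66cl4, between 33 and 139 per tumor. Its values were 7.45, 7.80, 7.71, 7.52 and 7.72 in untreated and 7.31, 7.55, 7.43, 7.39 and 7.47 in anti-PD-1-treated 66cl4 tumors. After chitin they were 7.13, 7.33, 7.29, 7.36 and 7.37, whereas after chitin + anti-PD-1 they were 7.32, 7.54, 7.52, 7.64 and 7.55. The 5 chitin-treated tumors were below all untreated tumors, but 4 of the 5 chitin + anti-PD-1 tumors were above all chitin-treated tumors. Rrad differed from untreated tumors by -0.34 after chitin, -0.21 after anti-PD-1 and -0.13 after the combination (-0.077 without chitin + anti-PD-1 tumor 1). The deposited scale compresses these differences, which were -0.74, -0.43 and -0.28 with limma-voom on the recovered reads. The difference between chitin + anti-PD-1 and chitin was 0.22. The chitin by anti-PD-1 interaction, the combination difference minus the sum of both single differences, was 0.43, so that Rrad was less low than this sum. With limma-voom, chitin + anti-PD-1 differed from chitin by 0.46. Summed skeletal muscle markers were 1277, 4410 and 1842 in chitin + anti-PD-1 tumors 4, 3 and 5 and at most 56.2 in the chitin group. In chitin + anti-PD-1 tumors 1 and 2, with Rrad at 7.32 and 7.54, the sums were 19.3 and 29.3. Untreated tumor 2, with the highest Rrad in 66cl4 (7.80), had a sum of 37.8, and untreated tumor 3 (7.71) had 3666. The part of muscle in Rrad was not tested. An antisense gene overlaps exons of Rrad on the opposite strand, and the authors counted reads with strand information.

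RRAD and its relatives bind the beta subunits of calcium channels and calmodulin. In the list of 12 such genes, 8 were higher and 4 lower in the chitin-containing 66cl4 groups, with a median difference of 0.04 and 0 called by limma. Rock2, a kinase of the cytoskeleton, had the lowest difference, -0.27 (SE 0.061), with an adjusted p of 0.0832, the smallest of all 7 partner lists. Calm2, the gene with the highest level per length, differed by 0.06 (SE 0.039, adjusted p = 0.510). In 4T1, 8 were higher and 4 lower, with 0 called.

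Ptpro (chr6:137252299-137464634, plus strand) was higher in all 3 treated 66cl4 groups than in untreated tumors. Its values were 7.75, 8.003, 7.80, 8.07 and 7.92 in untreated tumors and 8.08, 8.10, 8.12, 8.34 and 8.14 after anti-PD-1. They were 8.34, 8.32, 8.26, 8.34 and 8.43 after chitin and 8.27, 8.52, 8.13, 8.40 and 8.24 after chitin + anti-PD-1. None of the 15 treated tumors overlapped the 5 untreated tumors, but the margin was small, 8.079 in anti-PD-1-treated tumor 1 against 8.067 in untreated tumor 4. The share of all genes separate in this way was not computed, and nothing is read from it. Ptpro differed from untreated tumors by 0.43 after chitin, 0.40 after chitin + anti-PD-1 and 0.25 after anti-PD-1, and the chitin by anti-PD-1 interaction was -0.27. With limma-voom, the differences from untreated tumors were 0.70, 0.65 and 0.42. The tumors had between 82 and 358 reads for this gene.

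Ephrin receptors, ERBB2 and the kinases SYK and ZAP70 are known substrates of PTPRO. Of 7 such genes and related receptor phosphatases in the table, 4 were higher and 3 lower in the chitin-containing 66cl4 groups, with a median difference of 0.0038 and 0 called by limma. Ephb2 had the lowest difference, -0.18 (SE 0.081, adjusted p = 0.295), and Epha4 the highest, 0.12 (SE 0.055, adjusted p = 0.308). Erbb2, the gene with the highest level per length, differed by -0.16 (SE 0.077, adjusted p = 0.308). In 4T1, 4 were higher and 3 lower, and 0 were called.

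Tlr1 (chr5:64924680-64933600, minus strand) had values of 8.48, 8.51, 8.78, 8.95 and 8.73 in untreated and 8.68, 8.88, 8.80, 8.95 and 9.01 in anti-PD-1-treated 66cl4 tumors. After chitin they were 9.04, 9.06, 8.89, 9.13 and 9.15, and after chitin + anti-PD-1 9.08, 9.20, 9.01, 9.09 and 9.07. All 5 chitin + anti-PD-1 tumors were above all untreated tumors, and 4 of the 5 chitin-treated tumors were. The differences from untreated tumors were 0.36 for chitin, 0.40 for chitin + anti-PD-1 and 0.17 for anti-PD-1.

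The sequences before the start sites of Ptpro (chr6:137252049-137252298, plus strand) and Tlr1 (chr5:64933564-64933808, minus strand), from RefSeq (GRCm38.p6), are shown because these genes were both higher after chitin in 66cl4 and varied together in both models. Capitals mark matches to the CCAAT box (CCAAT) and the ETS core (GGAAGT) on either strand, where a pair of CCAAT matches of Tlr1 overlap each other.
Ptpro: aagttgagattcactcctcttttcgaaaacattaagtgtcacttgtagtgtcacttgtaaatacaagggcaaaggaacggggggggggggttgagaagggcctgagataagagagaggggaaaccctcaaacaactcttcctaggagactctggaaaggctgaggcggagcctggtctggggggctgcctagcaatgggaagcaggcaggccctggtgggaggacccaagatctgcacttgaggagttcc
Tlr1: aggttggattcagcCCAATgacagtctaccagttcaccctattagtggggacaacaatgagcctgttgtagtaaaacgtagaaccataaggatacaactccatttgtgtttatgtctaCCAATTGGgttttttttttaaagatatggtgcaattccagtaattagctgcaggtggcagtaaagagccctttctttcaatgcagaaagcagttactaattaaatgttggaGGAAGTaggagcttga
The window of Tlr1 contains both motifs, and no match was found in that of Ptpro to these, to the GC box, to the E-box (CACGTG), to the TATA box (TATAAA) or to the cAMP response element (TGACGTCA). Over all 32851 windows, 33.8% contain the CCAAT box, 19.7% the ETS core, 6.02% the E-box, 12.4% the TATA box and 1.55% the cAMP response element. For 5 of the 7 genes, 8 windows were matched in all. Those not shown are a second window of Tlr1 and that of Mafg, each with an E-box, and both windows of Pard3, with a GC box in the first and a CCAAT box, an ETS core and a TATA box in the second.

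TLR1 acts as a heterodimer with TLR2 and signals through MYD88. Of 9 genes for its partners, co-receptors and adaptors, 5 were higher and 4 lower in the chitin-containing 66cl4 groups, with a median of 0.02 and 0 called by limma. Tlr2 itself had the highest difference, 0.26 (SE 0.074, adjusted p = 0.131). In 4T1, Tlr2 differed by -0.26 (SE 0.12, adjusted p = 0.665). Cd36, a scavenger receptor, had the lowest difference in 66cl4, -0.39 (SE 0.17, adjusted p = 0.289), and Cd14, the co-receptor with the highest level per length, differed by -0.04 (SE 0.10, adjusted p = 0.692). In 4T1, 3 of the 9 were higher and 6 lower, with 0 called.

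The question whether 4T1 tumors follow could be tested, since 4T1 values were not used in the selection. None of the 7 genes passed the threshold in 4T1 in any of 6 comparisons, the chitin-containing groups against the others, each treated group against untreated tumors, chitin + anti-PD-1 against chitin, and the interaction. Over all genes, 0 (0%) were called by limma in each of these comparisons, while 1042, 397, 367, 1273, 445 and 648 genes had an unadjusted p under 0.05 for the chitin-containing groups, chitin, chitin + anti-PD-1, anti-PD-1, chitin + anti-PD-1 against chitin, and the interaction. Limma-voom called 0 genes in each too, with 1115, 347, 299, 1110, 400 and 561 under 0.05. For the 7 genes, the estimated difference between chitin-containing and other 4T1 groups had the opposite sign to that in 66cl4 for 6 genes and the same sign for Rrad. Against untreated 4T1 tumors alone, Myo18a (-0.06 after chitin, -0.03 after chitin + anti-PD-1) and Pard3 (-0.05 and -0.17) had the sign of 66cl4. Both were lower still after anti-PD-1 alone (-0.15 and -0.49), which is part of the other groups. The sign was opposite for Mafg (0.024 after chitin, 0.0084 after chitin + anti-PD-1), Klf5 (0.095 and 0.0076), Ptpro (-0.13 and -0.15) and Tlr1 (-0.21 and -0.11). In size, all these values were smaller than their SE (0.16, 0.20, 0.25 and 0.24 for these genes in this order). Each of these genes changed sign in at least 1 of the comparisons when single tumors were left out. Rrad had the opposite sign for chitin + anti-PD-1 (0.29, SE 0.25).

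Of the 7 genes, Tlr1 had the lowest unadjusted p for chitin-containing against other 4T1 groups. Its difference was -0.35 (SE 0.16, 95% interval -0.69 to -0.01, unadjusted p = 0.044, adjusted p = 0.665), against 0.30 in 66cl4. Ptpro differed by -0.26 (SE 0.17, interval -0.63 to 0.11, adjusted p = 0.805), against 0.29 in 66cl4. Neither passed the threshold over all genes. In the 4T1 anti-PD-1 group, which is part of the other groups, Tlr1 was 0.39 and Ptpro 0.23 above untreated tumors. Leaving out single tumors, Tlr1 ranged from -0.45 (without anti-PD-1-treated tumor 2, adjusted p = 0.146) to -0.29 (without untreated tumor 4). Ptpro ranged from -0.35 (without chitin + anti-PD-1 tumor 5, and likewise -0.35 without anti-PD-1-treated tumor 2) to -0.17 (without chitin + anti-PD-1 tumor 1, adjusted p = 0.954).

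Klf5 differed by 0.15 in 4T1 (SE 0.14, interval -0.14 to 0.44, adjusted p = 0.876), Pard3 by 0.13 (SE 0.12, interval -0.12 to 0.39, adjusted p = 0.869) and Mafg by 0.08 (SE 0.11, interval -0.16 to 0.32, adjusted p = 0.932). Myo18a differed by 0.03 (SE 0.091, interval -0.16 to 0.22, adjusted p = 0.983). Rrad differed by -0.10 (SE 0.17, interval -0.46 to 0.27, adjusted p = 0.953). All 5 intervals contained 0. Without single tumors, the difference ranged from 0.082 to 0.24 for Klf5, from 0.080 to 0.20 for Pard3 and from 0.023 to 0.13 for Mafg. The contrast between both models was not tested for these genes, because their 66cl4 values had chosen them.

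**Figure D2:**
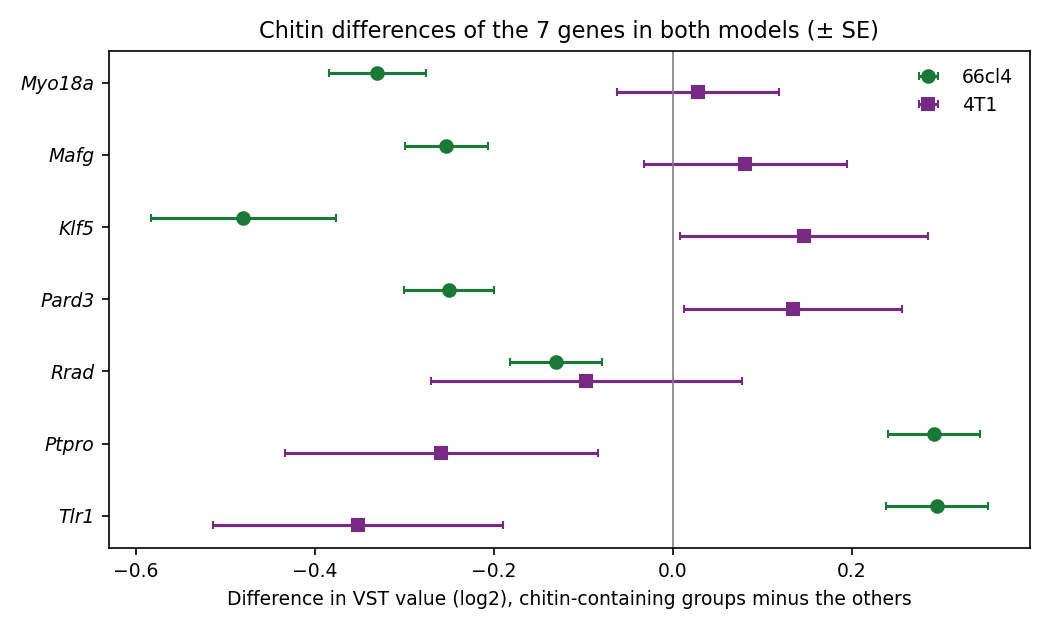
Difference between chitin-containing and other groups on the deposited log2 scale (x axis) for each of the 7 genes (rows) in 66cl4 (circles) and 4T1 (squares), with bars of 1 SE. For Rrad, both models are below 0, and for the other 6 genes they lie on opposite sides of 0, with wider bars in 4T1.

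The single 4T1 tumors show how wide their spread was. Tlr1 had values of 8.28, 7.81, 8.65 and 8.44 in untreated and 8.89, 7.87, 8.97, 8.76 and 8.93 in anti-PD-1-treated 4T1 tumors. They were 7.79, 8.44, 8.02, 7.84 and 8.35 after chitin and 7.73, 8.03, 8.13, 8.29 and 8.75 after chitin + anti-PD-1. Apart from tumor 2, the anti-PD-1-treated tumors were above all other 4T1 tumors. Anti-PD-1-treated tumors differed from untreated tumors by 0.39 (SE 0.24, adjusted p = 0.628), and without tumor 2 by 0.59 (adjusted p = 0.131), while without untreated tumor 2 the difference was 0.23. Macrophage markers moved with it, with sums of 23173 to 28179 in anti-PD-1-treated tumors 1, 3, 4 and 5, 10450 in tumor 2 and 12005 to 19937 in the untreated tumors, and their part in this difference was not tested. With array weights, which give less weight to tumors that stand apart, this difference was 0.60 with an adjusted p of 0.045, whereas the adjusted p ranged from 0.255 to 0.732 under the other 9 alternatives that keep all tumors.

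Ptpro was likewise highest after anti-PD-1 in 4T1, with 7.16, 7.25, 7.53 and 7.65 in untreated tumors, 7.83, 6.91, 7.91, 7.62 and 7.88 after anti-PD-1, 6.74, 7.74, 7.39, 7.24 and 7.22 after chitin and 6.50, 7.31, 7.17, 7.26 and 7.996 after chitin + anti-PD-1. Its reads were few in 4T1, between 8 and 163 per tumor. At equal read depth and on log2 of the thinned reads + 1, the difference between chitin-containing and other 4T1 groups was -0.83, compared with -0.26 on the deposited scale, and neither passed the threshold.

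Rrad in 4T1 had values of 7.10, 6.54, 7.77 and 7.22 in untreated tumors, 7.70, 7.06, 8.20, 7.54 and 7.64 after anti-PD-1, 7.02, 7.26, 7.13, 7.07 and 7.22 after chitin and 6.94, 7.38, 7.36, 7.29 and 8.297 after chitin + anti-PD-1. The chitin group was narrow, with an SD of 0.099, while the other groups had SDs between 0.41 and 0.50. Only 5 reads were counted in untreated tumor 2. The differences from untreated tumors were 0.47 for anti-PD-1 (SE 0.25, adjusted p = 0.595), 0.29 for the combination (SE 0.25, adjusted p = 1) and -0.02 for chitin (SE 0.25, adjusted p = 1). Single tumors moved these values, from 0.26 (without untreated tumor 2) to 0.67 (without untreated tumor 4) for anti-PD-1, and from 0.084 (without chitin + anti-PD-1 tumor 5) to 0.50 (without untreated tumor 4) for the combination, with 0.090 without untreated tumor 2. The 3 tumors with the highest Rrad in 4T1, chitin + anti-PD-1 tumor 5, anti-PD-1-treated tumor 3 and untreated tumor 4, also had the highest sums of skeletal muscle markers (10768, 10624 and 5293). Untreated tumor 2, with the lowest Rrad, had a sum of 153, and the part of muscle in Rrad was not tested. The chitin by anti-PD-1 interaction of Rrad was -0.16 in 4T1 (SE 0.35, interval -0.88 to 0.57, adjusted p = 0.969), beside 0.43 in 66cl4.

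Pard3 in 4T1 had values of 9.89, 10.07, 10.38 and 9.99 in untreated and 9.70, 9.93, 9.26, 9.45 and 9.64 in anti-PD-1-treated tumors, 10.16, 10.12, 10.47, 9.89 and 9.53 after chitin and 10.05, 9.83, 10.00, 10.19 and 9.50 after chitin + anti-PD-1. Of the 5 anti-PD-1-treated tumors, 4 were below all untreated tumors. The difference of -0.49 (SE 0.18, unadjusted p = 0.0126) did not pass the threshold over all genes (adjusted p = 0.517). The values of Klf5 in 4T1 ranged from 8.36 to 9.51, with both extremes among the anti-PD-1-treated tumors. Mafg ranged from 9.79 to 10.66, with both extremes in the chitin group, and Myo18a from 9.95 to 10.65.

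For all 7 genes, each pair of 4T1 groups compared overlapped. Between the chitin-containing and other 4T1 groups, 0.00698% of all genes were separate (1 gene). The shares of all genes were 0.74% for chitin against untreated, 0.936% for chitin + anti-PD-1 against untreated, 1.76% for anti-PD-1 against untreated, 0.391% for chitin + anti-PD-1 against chitin and 1.09% for chitin + anti-PD-1 against anti-PD-1. The SD within groups was higher in 4T1 than in 66cl4 for each of the 7 genes. It was 1.26 times as high for Klf5 and 1.60 for Myo18a, between 2.42 and 2.87 for Pard3, Mafg and Tlr1, and 3.51 and 3.52 for Ptpro and Rrad, compared with a median of 1.67 over all genes. Selection by strength of evidence in 66cl4 favors genes with a small SD there, so nothing is read from these ratios.

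The level of 5 of the 7 genes, as the mean of the 4 group means, differed between the models with limma. The same test called 78.8% of all genes, so a call says little about these genes. Ptpro was 0.79 higher in 66cl4 (SE 0.092, adjusted p = 1.3e-09), Tlr1 0.61 higher (SE 0.086, adjusted p = 8.4e-08), Klf5 0.27 higher (SE 0.089, adjusted p = 0.00626) and Myo18a 0.26 higher (SE 0.053, adjusted p = 3.4e-05). Pard3 was the only called member that was higher in 4T1, with -0.35 (SE 0.066, adjusted p = 1.1e-05). Mafg differed by -0.10 (SE 0.061, interval -0.23 to 0.02, adjusted p = 0.121) and Rrad by 0.13 (SE 0.091, interval -0.06 to 0.31, adjusted p = 0.204). All tumors of a model come from the same cell line, so cell line and model cannot be told apart.

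Ordered by mean over the 8 groups, untreated 66cl4 tumors were the highest group for Myo18a, Mafg, Klf5 and Rrad, and the lowest 66cl4 group for Ptpro and Tlr1. For Ptpro and Tlr1, the 4 highest groups were those of 66cl4. For Myo18a, the 66cl4 chitin group (10.26 ± 0.090) was next to the untreated 4T1 group (10.26 ± 0.30), and for Klf5, the 66cl4 chitin group (8.89 ± 0.17) was below the untreated 4T1 group (8.93 ± 0.21). Pard3 was highest in untreated 4T1 tumors (10.08 ± 0.21, SD, n = 4) and lowest in chitin-treated 66cl4 tumors (9.43 ± 0.12, SD, n = 5). Of the neighbours in these orders, 48 overlapped, and the only pair without overlap was Ptpro in anti-PD-1-treated and untreated 66cl4 tumors.

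Per kilobase of exon, Mafg had the highest level of the 7 genes in 66cl4, with a mean normalized count of 166 ± 22.7 (SD, n = 20) per kilobase, followed by Tlr1 with 110 ± 19.3, Klf5 with 91.1 ± 30.02 and Myo18a with 80.6 ± 13.1. Rrad (44.9 ± 11.4) and Pard3 (43.5 ± 6.33) were lower, and Ptpro had the lowest level, 26.0 ± 5.65. In 4T1 (n = 19), Mafg was again highest with 181 ± 35.2 per kilobase and Ptpro lowest with 10.1 ± 5.82, while Tlr1 had 63.7 ± 27.9, Klf5 70.9 ± 20.2, Myo18a 65.7 ± 10.2, Pard3 58.5 ± 14.6 and Rrad 42.1 ± 31.2. Mafg was above 82.4% of the genes with a known exon length in 66cl4, and Ptpro above 33.6%.

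Some of the 7 genes also varied together among tumors of the same group, which the selection did not use. After subtraction of the group means, Klf5 and Pard3 had Pearson's r = 0.80 and Spearman's rho = 0.74 over the 20 66cl4 tumors, and r = 0.64 without the 2 tumors farthest from the median of Klf5. Over the 19 4T1 tumors, the same pair had r = 0.20 and rho = 0.06. Ptpro and Tlr1 had r = 0.56 and rho = 0.61 in 66cl4 (0.52 without 2 tumors), and r = 0.86 and rho = 0.81 in 4T1 (0.77 without 2 tumors). Rrad and Tlr1 had r = 0.86 and rho = 0.91 in 4T1, but r = 0.14 and rho = 0.24 in 66cl4. Other pairs varied in opposite directions, such as Klf5 and Tlr1 (r = -0.74 in 4T1, -0.35 in 66cl4) and Mafg and Rrad (r = -0.63 in 66cl4, -0.45 in 4T1). Rrad and Ptpro had r = 0.77 in 4T1 and 0.20 in 66cl4. The pairs named here are only some of the 21. They are given as a description without p-values, since tumors share depth and tissue composition.

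**Figure D3:**
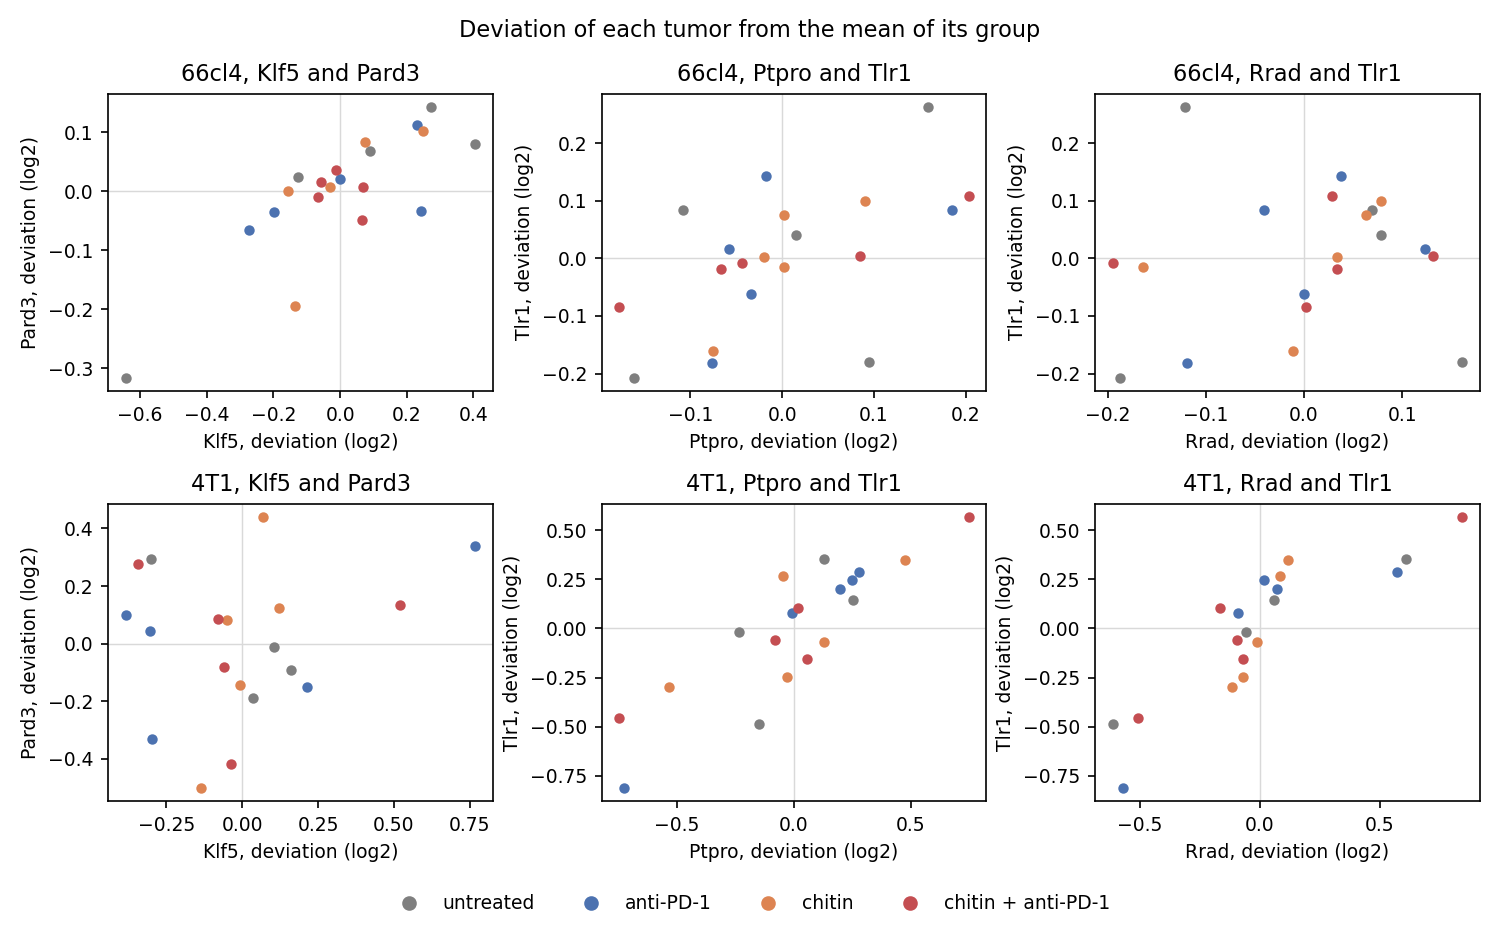
Deviation of each tumor (point, colored by treatment) from the mean of its group on the deposited log2 scale, for Klf5 and Pard3 (left), Ptpro and Tlr1 (middle) and Rrad and Tlr1 (right) in 66cl4 (top) and 4T1 (bottom). The points of Klf5 and Pard3 lie along a line in 66cl4 (r = 0.80) and scatter in 4T1 (r = 0.20), and those of Rrad and Tlr1 lie along a line in 4T1 (r = 0.86) and scatter in 66cl4 (r = 0.14).

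Across the 20 66cl4 tumors, treatment differences included, the genes most like Tlr1 were Evi2a (r = 0.94), Pirb (r = 0.92) and Vav1 (r = 0.92), which are expressed in leukocytes. Over the 19 4T1 tumors, their r with Tlr1 was 0.88, 0.93 and 0.90. The genes most like Ptpro were Arhgap15 (r = 0.89), 9330175E14Rik (r = 0.88) and Mgrn1 (r = 0.87), with r = 0.82, 0.01 and -0.16 in 4T1. Klf5 was most like Fip1l1 (r = 0.92), Pard3 (r = 0.91) and Akap12 (r = 0.90), and Pard3 most like Klf5, Uaca (r = 0.88) and Tcf25 (r = 0.88). In 4T1, r of Klf5 was 0.68 with Fip1l1, 0.34 with Pard3 and 0.21 with Akap12, and r of Pard3 was 0.59 with Uaca and 0.53 with Tcf25.

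Myo18a was most like Cul4a (r = 0.85), Hs1bp3 (r = 0.83) and Klf5 (r = 0.82) in 66cl4, with r = 0.41, 0.29 and 0.13 in 4T1. Genes like Mafg included Fendrr (r = 0.87) and Klhdc1 (r = 0.86), with r = 0.26 and 0.07 in 4T1. Rrad had weaker neighbours, Adamtsl3 (r = 0.79), 1700123O20Rik (r = 0.74) and Mapt (r = 0.69), with r = -0.50, -0.58 and 0.08 in 4T1, and the first and last of these had mean normalized counts of only 1.48 and 4.68. All these values are descriptions of the tumors, which share treatment and depth.

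Markers of macrophages moved with Tlr1 and Ptpro in both models. In the chitin-containing 66cl4 groups, 6 of 7 macrophage markers were higher and 1 lower, with a median difference of 0.16 and 0 called by limma (smallest adjusted p = 0.140). Their summed normalized count ranged from 33645 to 42174 (median 35947), compared with 23457 to 40787 (median 31643) in the other 66cl4 groups. In 4T1, 1 of 7 was higher and 6 lower, with a median difference of -0.61, 4 lower at an unadjusted p under 0.05, 0 called (smallest adjusted p = 0.580), and sums of 4165 to 19783 (median 12310) against 10450 to 28179 (median 19937). By group, the 4T1 median sum was highest after anti-PD-1 (24188). It was 15752 in untreated, 12026 in chitin-treated and 14118 in chitin + anti-PD-1-treated tumors. No macrophage marker was at 0 in any group. Their part in the differences of Tlr1 and Ptpro was not tested.

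T cell markers moved likewise. All 5 T cell markers in the table had a higher mean in the chitin-containing 66cl4 groups, with sums of 89.2 to 237 against 35.2 to 213 and a median difference of 0.17. In 4T1, all 5 had a lower mean, with sums of 148 to 844 against 236 to 1568 and a median difference of -0.53, all 5 at an unadjusted p under 0.05. The group without chitin that stood out was anti-PD-1, with a median sum of 1010. Median sums were 390 in untreated, 333 in chitin-treated and 269 in chitin + anti-PD-1-treated 4T1 tumors. With limma, 0 were called in either model, and their part in the results was not tested. Of the 6 markers of tumor epithelium, among them Epcam and Krt8, 4 were higher and 2 lower in 66cl4, with sums of 4022 to 6020 against 3369 to 5280. In 4T1, 5 were higher and 1 lower, with sums of 17243 to 50133 against 13849 to 36588, and again 0 were called. Keratin and Epcam transcripts were present in all groups of both models.

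**Figure D4:**
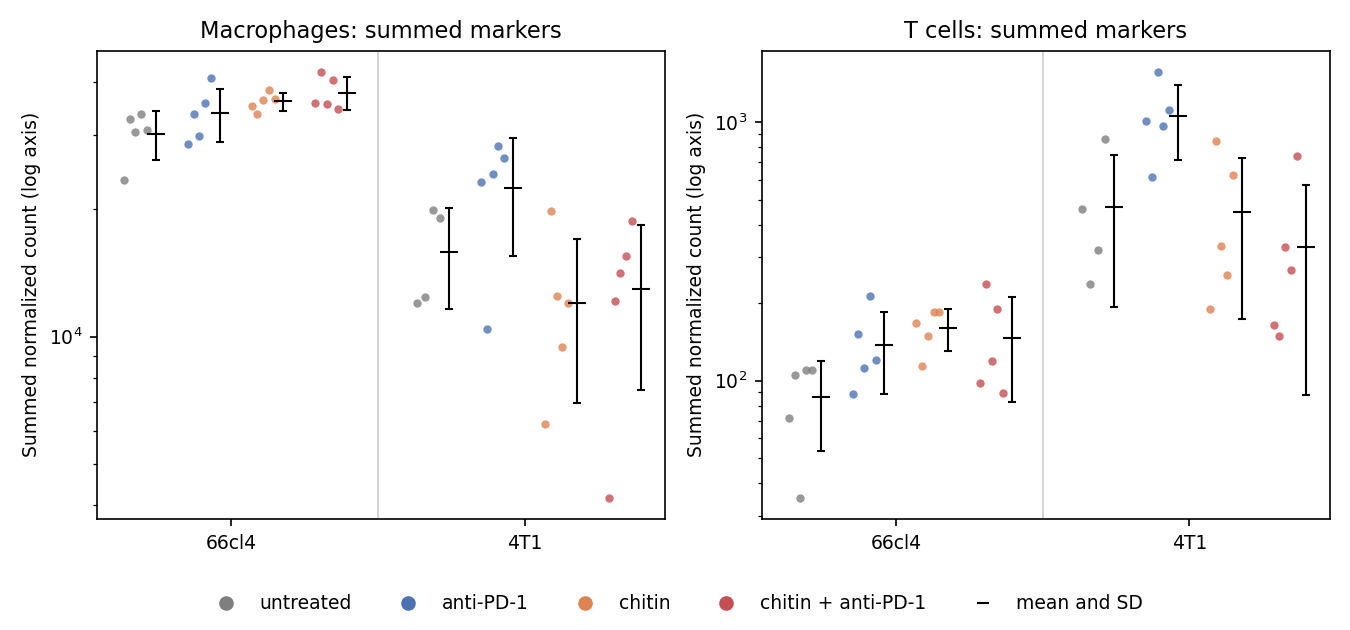
Summed normalized counts (log axis) of 7 macrophage markers (left panel) and 5 T cell markers (right panel) in each tumor (point) of the 4 treatment groups of 66cl4 and 4T1, with the mean and SD as a black mark and bar. For macrophages, the chitin-containing 66cl4 tumors lie between 33645 and 42174 and the chitin-containing 4T1 tumors between 4165 and 19783.

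Read depth moved with chitin in 66cl4, so the differences were computed again with every tumor thinned to 5105898 reads. On log2 of the thinned reads + 1, the chitin-containing 66cl4 groups then differed from the others by -0.35 for Myo18a, -0.28 for Mafg and -0.58 for Klf5. The difference was -0.27 for Pard3, -0.33 for Rrad, 0.49 for Ptpro and 0.40 for Tlr1. The scale and the normalization change together with the depth in these values, since the thinned reads were not normalized further. With limma-voom at full depth, the differences were -0.36, -0.29, -0.59, -0.29, -0.29, 0.47 and 0.39 for the same genes in this order, and the part of depth was not tested. In 4T1, the values at equal depth were 0.02, 0.06, 0.20, 0.15, -0.10, -0.83 and -0.50 for the same genes.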

How the data were processed

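RNA of primary tumors was sequenced from TruSeq libraries. The authors mapped reads with HISAT2 to mm10 and counted them per gene with strand information (summarizeOverlaps, intersection non-empty), kept genes with sufficient reads, and deposited log2-scale values after the variance stabilizing transformation of DESeq2. Tool versions are not given in the sources used here. Inverting the transformation returned whole reads for 100% of values (tolerance 0.001).

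Group means of the deposited values were compared with limma 3.58.1 (R 4.3.3, eBayes with trend) per model, or over both models for the model contrast, with Benjamini-Hochberg adjustment over 14318 genes and a threshold of 0.05. Alternatives were filters, scalings, array weights, replicate block, limma-voom, thinning to 5105898 reads, other sample sets and leaving out each tumor. The fits were tested on simulated data. Named genes were the 7 members, the 3 genes most correlated with each in 66cl4, and, per partner list, the gene with the highest level per length and those with the highest and lowest 66cl4 difference. Some genes that this rule names are not reported here. The members and lists were chosen with earlier results of these data known.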

Additional observations from a re-analysis of the deposited data

Results flagged for a closer look

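In 4 of the 56 combinations of gene and group, 1 tumor was farther from its group than Dixon's 95% limit allows, where chance gives about 1 in 20. Pard3 was 9.43 in untreated 66cl4 tumor 3, with 9.77 to 9.89 in the others of the group. This tumor also had the lowest Klf5 of its group, the highest sum of skeletal muscle markers (3666, against 23.8 to 147) and the lowest sums of T cell (35.2) and neutrophil (224) markers, whose part was not tested. Ptpro was 8.34 in anti-PD-1-treated 66cl4 tumor 4, with 8.08 to 8.14 in the others. In anti-PD-1-treated 4T1 tumor 2, Tlr1 was 7.87, with 8.76 to 8.97 in the others, and Ptpro was 6.91, with 7.62 to 7.91 in the others. The same tumor had the highest Klf5 (9.51) and Mafg (10.34), the lowest Rrad (7.06) and the lowest sum of macrophage markers (10450) of its group.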

How the results depend on the processing

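Array weights gave 297 called genes for the chitin-containing 4T1 groups, 960 for anti-PD-1 against untreated in 4T1 and 185 for the chitin-containing 66cl4 groups, in place of 0. With both models in 1 fit, these counts were 58, 60 and 1, with 3 for chitin + anti-PD-1 against untreated, 5 against chitin and 1 for the interaction in 4T1. The low filter gave 6 and equal read depth 7 for the chitin-containing 66cl4 groups, and equal depth gave 1 for chitin + anti-PD-1 against untreated in 4T1. With the replicate block, 16 and 1 genes were called for these, and no member changed its call in the tests within 4T1 or between models. Within 66cl4, members were given no p-value because they were selected there, so whether they are among the called genes is not reported. Tumors of the same number were not treated as pairs in the main fits. Their mean correlation was 0.010 in 4T1, against -5.71e-04 for tumors of other numbers, and 0.062 in 66cl4, against -0.015. In 4T1, 3 of 19 tumors were closest to their own number, and in 66cl4, 8 of 20 were. Whether tumors of the same number share a source of variation was not tested.

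Of the 84 differences of the members, 22 changed sign and 29 others moved by over 1.5 times without 1 tumor. Differences near 0 also changed sign under other settings. With array weights, they were 0.042 for Myo18a and 0.014 for Pard3 (chitin against untreated), 0.0060 for Myo18a and -0.062 for Klf5 (chitin + anti-PD-1 against untreated), and -0.036 for Myo18a and 0.048 for Mafg (against chitin) in 4T1, and -6.91e-04 for Tlr1 (against chitin) in 66cl4. At equal depth, 4T1 values were -0.0054 for Mafg and 0.19 for Rrad (chitin against untreated), -0.020 for Mafg (chitin + anti-PD-1 against untreated) and 0.072 for Ptpro (against chitin). Median centring gave 7.67e-04 for Rrad (chitin against untreated). The cause was not tested.

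Leaving out each tumor in turn, counts ranged from 0 to 1 for the chitin-containing 4T1 groups, 0 to 80 for anti-PD-1 against untreated (80 without anti-PD-1-treated tumor 2), 0 to 2 for chitin + anti-PD-1 against chitin and 0 to 1 for the interaction in 4T1, and 0 to 269 for the chitin-containing 66cl4 groups (269 without untreated tumor 3, 29 without anti-PD-1-treated tumor 2, 21 without chitin-treated tumor 3). For the chitin-containing 4T1 groups against the others, these ranges were Myo18a from -0.013 to 0.094 and Rrad from -0.20 to 0.0054. For chitin against untreated in 4T1, these ranges were Myo18a from -0.14 to 0.073, Ptpro from -0.25 to 9.06e-06, Mafg from -0.093 to 0.12, Klf5 from -0.0046 to 0.15, Pard3 from -0.16 to 0.074 and Rrad from -0.22 to 0.18. For chitin + anti-PD-1 against untreated in 4T1, these ranges were Myo18a from -0.11 to 0.10, Ptpro from -0.34 to 0.035, Mafg from -0.076 to 0.10, Klf5 from -0.12 to 0.094 and Tlr1 from -0.27 to 0.013. For chitin + anti-PD-1 against chitin in 4T1, these ranges were Myo18a from -0.028 to 0.10, Ptpro from -0.21 to 0.17, Mafg from -0.11 to 0.10 and Tlr1 from -0.042 to 0.21. For the 4T1 interaction, these ranges were Klf5 from -0.026 to 0.30 and Rrad from -0.37 to 0.049. For chitin + anti-PD-1 against chitin in 66cl4, these ranges were Ptpro from -0.075 to 0.021, Pard3 from -0.038 to 0.035 and Tlr1 from -0.0046 to 0.060. Between models, Rrad was called with quantile normalization (0.22, adjusted p = 0.0219) and without 4T1 chitin + anti-PD-1 tumor 5 (0.18, adjusted p = 0.0351), and Mafg without 4T1 chitin tumor 2 (-0.13, adjusted p = 0.0426) or chitin + anti-PD-1 tumor 4 (-0.12, adjusted p = 0.0491). Ptpro in 4T1 and Rrad rest on few reads, which limits their precision.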

Other observations

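Markers of other cells differed between groups in part, with 0 called by limma in either model. All 8 skeletal muscle markers were higher in the chitin-containing 66cl4 groups and all 8 lower in those of 4T1, but the median sums were close, 35.2 against 34.9 in 66cl4 and 709 against 706 in 4T1. Single tumors had high sums in both kinds of groups, up to 4410 with and 3666 without chitin in 66cl4, and 10768 and 10624 in 4T1. Of the 6 adipocyte markers, 3 were higher and 3 lower in 66cl4, and 1 was higher and 5 lower in 4T1. Of the 6 neutrophil markers, 2 were higher and 4 lower in 66cl4, and 5 were higher and 1 lower in 4T1, where the highest sum was 8598, after chitin + anti-PD-1. In 66cl4, 2 higher and 0 lower neutrophil markers had an unadjusted p under 0.05 with limma. Their sums there were 347 to 448 (median 386) with chitin against 224 to 423 (median 341) without. Of the 3 B cell markers, 1 was higher in 66cl4, and all 3 were lower in 4T1. All 4 endothelial markers were lower in 66cl4, with sums of 1048 to 1550 against 1267 to 1723, and 2 of 4 were lower in 4T1. The 3 milk protein genes were all lower in 66cl4, and 2 of 3 were higher in 4T1, with sums from 4.01 to 2825 over the 4T1 tumors. The part of these cells in the values of the 7 genes was not tested.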
